A study of Mus musculus with 6 samples.

Results

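The peroxiredoxins and the thioredoxin system were described by 10 genes, Prdx1 to Prdx6, Txn1, Txn2, Txnrd1 and Srxn1, taken by their symbols from the 55335 gene rows of the deposited table. They were chosen by symbol, and the measured values in view at that choice were the counts of these same libraries. All 10 had 1 row each, and all 10 were among the 13901 genes that passed the filter on low counts. Because earlier results of the kinsenoside comparison were known, its values are given here as a description of the gene family. The libraries were bulk paired-end RNA-seq of polyA RNA from mouse bone marrow-derived macrophages (BMDMs), cultured in high-glucose DMEM with serum, antibiotics and recombinant mouse M-CSF. In 3 libraries the cells received medium conditioned by pancreatic acinar cells that had been injured (PAC-CM) together with 400 µM kinsenoside (KD), a plant glycoside, and in 3 libraries they received PAC-CM alone. PAC-CM was added on day 5 in both groups, so every library carries the exposure to injured pancreas and no group of resting macrophages was analysed here. The sources used here do not give the strain, sex and age of the mice, the length of exposure, or whether replicates were separate cultures or animals. The p-values therefore measure the spread between these libraries, which may be technical.

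Peroxiredoxins are abundant enzymes that reduce hydrogen peroxide, organic peroxides and peroxynitrite with a reactive (peroxidatic) cysteine. In the typical peroxiredoxins, Prdx1 to Prdx4, that cysteine forms a disulfide with a partner subunit. In Prdx1 to Prdx3 thioredoxin reduces the disulfide, and thioredoxin reductase, a selenoprotein, restores thioredoxin with electrons from NADPH. Sulfiredoxin rescues peroxiredoxins whose cysteine has been oxidized too far. Prdx6 stands apart because it lacks a resolving cysteine, is reduced with the help of glutathione, and also acts on phospholipids. Macrophages make peroxide themselves through the phagocyte oxidase, and several of these genes, Srxn1, Txnrd1 and Prdx1 among them, are known targets of the transcription factor NRF2.

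The coding sequence around the catalytic residue is shown for the 10 genes. In the peroxiredoxins it holds the peroxidatic cysteine, which Prdx1 to Prdx6 share, and no other cysteine codon, so it does not show a resolving cysteine. The 33 bases given for each lie within the open reading frame of a GENCODE M21 transcript (GRCm38) and run 5′ to 3′ on the coding strand. Capitals mark the peroxidatic cysteine codon in the peroxiredoxins, both active-site cysteine codons in the thioredoxins, the cysteine and selenocysteine codons in Txnrd1, and the catalytic cysteine codon in Srxn1.
Prdx1: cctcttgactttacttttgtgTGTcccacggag
Prdx2: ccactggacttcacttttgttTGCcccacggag
Prdx3: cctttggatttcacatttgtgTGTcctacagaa
Prdx4: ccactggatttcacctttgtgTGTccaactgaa
Prdx5: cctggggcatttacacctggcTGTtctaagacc
Prdx6: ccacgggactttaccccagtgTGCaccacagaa
Txn1: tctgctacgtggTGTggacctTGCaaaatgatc
Txn2: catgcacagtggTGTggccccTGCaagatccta
Txnrd1: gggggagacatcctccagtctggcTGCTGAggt
Srxn1: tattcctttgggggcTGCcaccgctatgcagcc
The capitals fall at codon 52 in Prdx1, codon 51 in Prdx2 and codon 47 in Prdx6, counted from the start codon. The reading frame of Prdx6 has 2 cysteine codons among 224, against 4 among 199 in Prdx1. In Txnrd1 the selenocysteine codon, written TGA, is codon 612 of 613 and is read as an amino acid rather than as a stop.

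Prdx6 was the member with the clearest difference. Its level was 712, 646 and 744 CPM (the count divided by the library total and multiplied by 1000000) in the kinsenoside libraries, against 432, 481 and 473 CPM in the PAC-CM libraries. All 3 kinsenoside libraries lay above all 3 PAC-CM libraries, and the gap between the groups exceeded the spread within either. The means were 701 ± 49.9 CPM with kinsenoside and 462 ± 25.9 CPM with PAC-CM alone (SD, n = 3 per group). In edgeR's quasi-likelihood test over all genes the log2 fold change was 0.65 (SE 0.0775), a 1.56-fold rise, with a Benjamini-Hochberg adjusted p of 0.0184. Prdx6 (ENSMUSG00000026701) is a protein-coding gene on chromosome 1, 161240112 to 161251219, minus strand (GRCm38). Its call was lost without any 1 of the PAC-CM libraries, at edgeR adjusted p = 0.0946, 0.0598 and 0.0701 without replicates 1, 2 and 3, while the log2 fold change stayed between 0.60 and 0.68.

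None of the other 9 members passed the threshold of 0.05 on the adjusted p. The single call among 10 members stands beside 0.511% of all tested genes called by edgeR in either direction and 0.209% called higher. At an unadjusted p under 0.05 there were 4 members, Prdx1, Prdx6, Txn1 and Txn2, all higher, against 14.9% of all tested genes in either direction (6.74% higher and 8.19% lower). The estimates lay above 0 for 9 of the 10 members and for 48.9% of all tested genes, and the median log2 fold change was 0.08 over the members and -0.01 over all tested genes. Because the family was chosen with these results known, nothing is read from these counts.

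**Figure D1:**
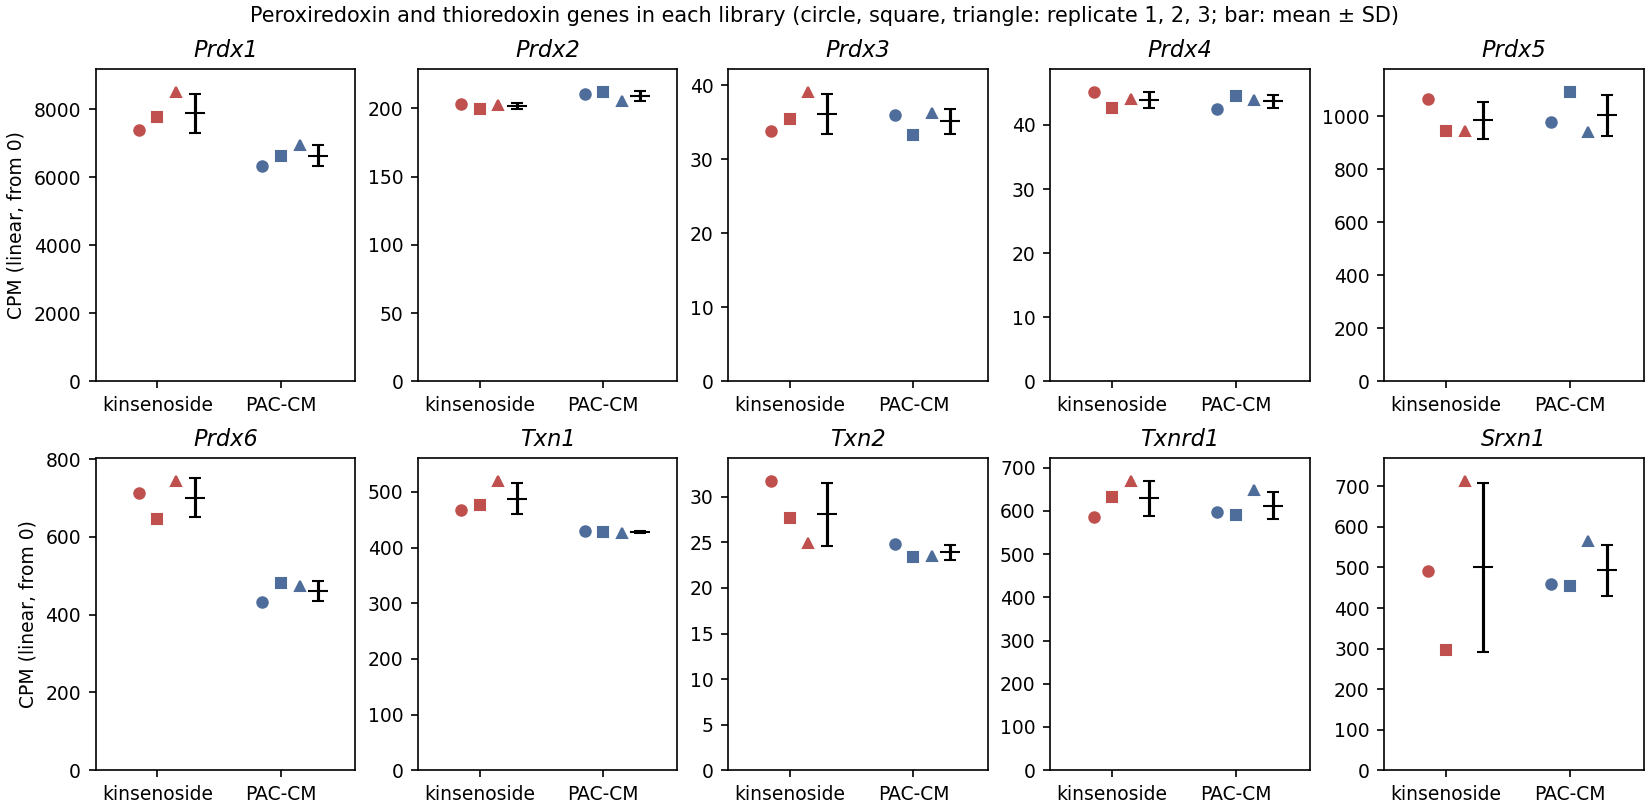
CPM of each gene (linear axis from 0) in kinsenoside and PAC-CM libraries, 1 panel per gene, with each replicate as a point and the mean ± SD as a bar (n = 3). Prdx6 lies at 646 to 744 CPM with kinsenoside and at 432 to 481 CPM in PAC-CM alone, and Srxn1 spreads from 297 to 713 CPM within the kinsenoside group.

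**Figure D2:**
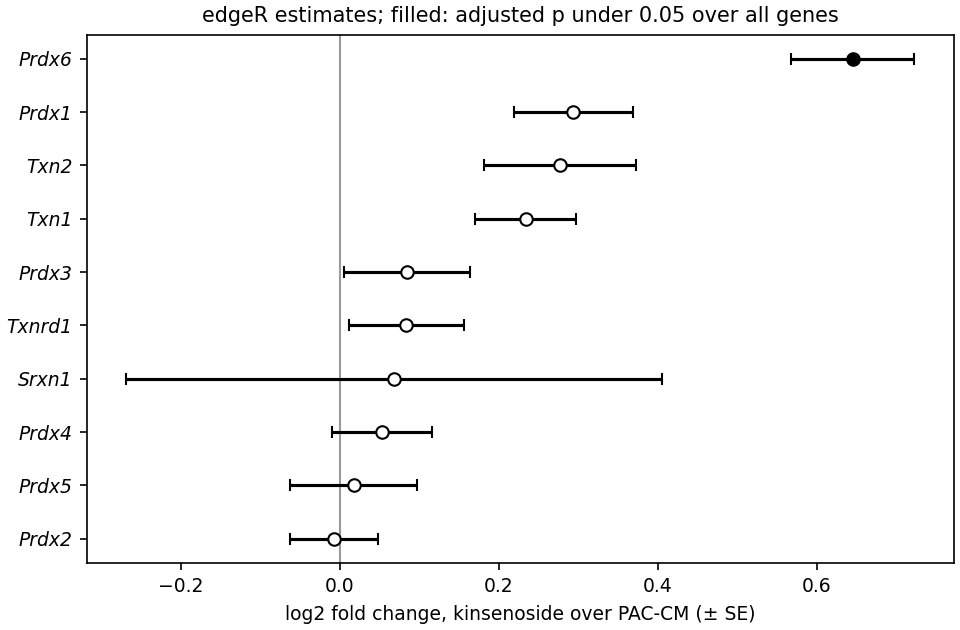
Log2 fold change of each gene, kinsenoside over PAC-CM, from edgeR, with bars of 1 SE on either side and genes ordered by estimate. The filled point is Prdx6 at 0.65, the only member with an adjusted p under 0.05, and the widest bar is that of Srxn1 (SE 0.337).

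Among the typical peroxiredoxins, Prdx1, the main cytosolic enzyme, had 7382, 7760 and 8494 CPM in the kinsenoside libraries, against 6331, 6613 and 6941 CPM in the PAC-CM libraries. All 3 kinsenoside libraries lay above the PAC-CM libraries. The means were 7879 ± 565 CPM with kinsenoside and 6628 ± 305 CPM with PAC-CM alone (SD, n = 3 each). The log2 fold change was 0.29 (SE 0.0749), and the edgeR adjusted p of 0.131 missed the threshold. DESeq2 gave an adjusted p of 0.0322 for the same gene, so its call depended on the test. Prdx1 (ENSMUSG00000028691) lies on chromosome 4, 116685544 to 116700822, plus strand.

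Prdx2 (chromosome 8, 84969587 to 84974834), a cytosolic peroxiredoxin best known from red blood cells, had 203, 199 and 203 CPM with kinsenoside, against 210.3, 212 and 205 CPM in PAC-CM alone. On this scale the kinsenoside libraries lay just below the others, whereas after TMM scaling, which corrects library totals for their composition, the groups overlapped. The edgeR log2 fold change was -0.01 (SE 0.0554, adjusted p = 0.972), with a 95% interval of -0.16 to 0.15. The exons of Prdx2 share 173 bases with those of Junb and 177 with those of Rnaseh2a, both on the opposite strand, and the sources used here do not say whether the counting used strand. The 6 erythroid markers, of which 2 reached 3 counts in a library, together summed to between 0.0948 and 0.437 CPM with kinsenoside and between 0.136 and 0.253 CPM in PAC-CM alone.

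Prdx3 (chromosome 19, 60864051 to 60874556), the mitochondrial enzyme, had 33.8, 35.4 and 39.1 CPM with kinsenoside and 35.9, 33.2 and 36.2 CPM in PAC-CM alone. Prdx4 (chromosome X, 155323918 to 155340754), which works in the endoplasmic reticulum and helps protein disulfides to form, had 45.1, 42.6 and 44.1 CPM with kinsenoside and 42.5, 44.5 and 44.0 CPM in PAC-CM alone. The groups overlapped for both genes. Their log2 fold changes had 95% intervals of -0.13 to 0.30 for Prdx3 and -0.12 to 0.23 for Prdx4, from the edgeR estimate, its SE and a t quantile with 4 degrees of freedom. Differences inside these intervals remained possible, and the intervals, not adjusted over genes, do not mark what the test could detect.

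Prdx5 (chromosome 19, 6906697 to 6910106), an atypical peroxiredoxin found in mitochondria, peroxisomes and cytosol, had 1066, 946 and 943 CPM with kinsenoside and 979.5, 1091 and 941 CPM in PAC-CM alone. The groups overlapped, and the 95% interval of the log2 fold change was -0.21 to 0.24. Its exons share 409 bases with Trmt112 on the opposite strand.

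The difference between Prdx6 and Prdx1 could also be read within each library, as a ratio of counts that does not depend on scaling. Prdx6 had 0.0965, 0.0832 and 0.0875 counts per Prdx1 count with kinsenoside, against 0.0683, 0.0727 and 0.0681 in PAC-CM alone. The kinsenoside libraries were all higher. An exact permutation test of the log2 ratios, two-sided, gave p = 0.1, the smallest that 3 libraries against 3 allow (0.125 after Benjamini-Hochberg adjustment over 5 ratios, chosen after the values were seen). Per Txnrd1 count, Prdx6 had 1.21, 1.02 and 1.11 counts with kinsenoside, against 0.724, 0.813 and 0.729 in PAC-CM alone (exact permutation p = 0.1, adjusted 0.125). Groups that do not overlap always give 0.1 in this test, so the p adds nothing to the order of the libraries. Srxn1 per Prdx1 count went the other way and overlapped between the groups, with a log2 difference of -0.31 (exact permutation p = 0.5).

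Of the thioredoxins, Txn1 (chromosome 4, 57943373 to 57956411), the cytosolic form that reduces peroxiredoxins and ribonucleotide reductase, had 467, 477 and 519 CPM in the kinsenoside libraries, against 429.0, 429 and 426 CPM in the PAC-CM libraries. All kinsenoside libraries were above, and the PAC-CM libraries were nearly identical, with an SD of 1.79 CPM. The log2 fold change was 0.23 (SE 0.0639), and the edgeR adjusted p was 0.154. Txn2 (chromosome 15, 77915047 to 77929006), the mitochondrial thioredoxin, had 31.7, 27.6 and 24.9 CPM with kinsenoside and 24.8, 23.4 and 23.5 CPM in PAC-CM alone. The groups were barely apart, since kinsenoside replicate 3 and PAC-CM replicate 1 almost coincided, and the edgeR adjusted p was 0.235.

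Across the family, CPM of the kinsenoside libraries lay wholly above the PAC-CM libraries for 4 members and wholly below for 1, beside 6.86% and 15.7% of all tested genes (22.5% in either direction). After TMM scaling 4 members lay above and none below, beside 10.4% and 11.4% of all tested genes.

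Txnrd1 (chromosome 10, 82833951 to 82897712), the cytosolic thioredoxin reductase, had 587, 632 and 669 CPM with kinsenoside and 598, 591 and 649 CPM in PAC-CM alone. The groups overlapped, with a log2 fold change of 0.08 (95% interval -0.12 to 0.28). Set against its reductase, Txn1 had 0.796, 0.755 and 0.776 counts per Txnrd1 count with kinsenoside, against 0.718, 0.725 and 0.656 in PAC-CM alone. The groups did not overlap in this ratio, 1 of the 5 chosen after the values were seen. The exact permutation p was therefore the smallest possible, 0.1 (0.125 after Benjamini-Hochberg adjustment), and adds nothing to that order.

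Srxn1 (chromosome 2, 152105516 to 152111376), sulfiredoxin, was the most uneven member. It had 492, 297 and 713 CPM in kinsenoside replicates 1 to 3, against 459, 455 and 566 CPM in the PAC-CM libraries. The highest and the lowest of all 6 libraries were both kinsenoside libraries. The SD was 41.6% of the mean with kinsenoside and 12.8% in PAC-CM alone, while no other member exceeded 12.2% in either group. The log2 fold change of 0.07 had a 95% interval of -0.87 to 1.00, so neither a change nor its absence could be shown. Of 1634 tested genes averaging 100 CPM or more, 15 including Srxn1 (0.918%) had a ratio of highest to lowest kinsenoside library at least as large as its 2.40, and the median ratio was 1.13. No annotated gene overlaps Srxn1.

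**Figure D3:**
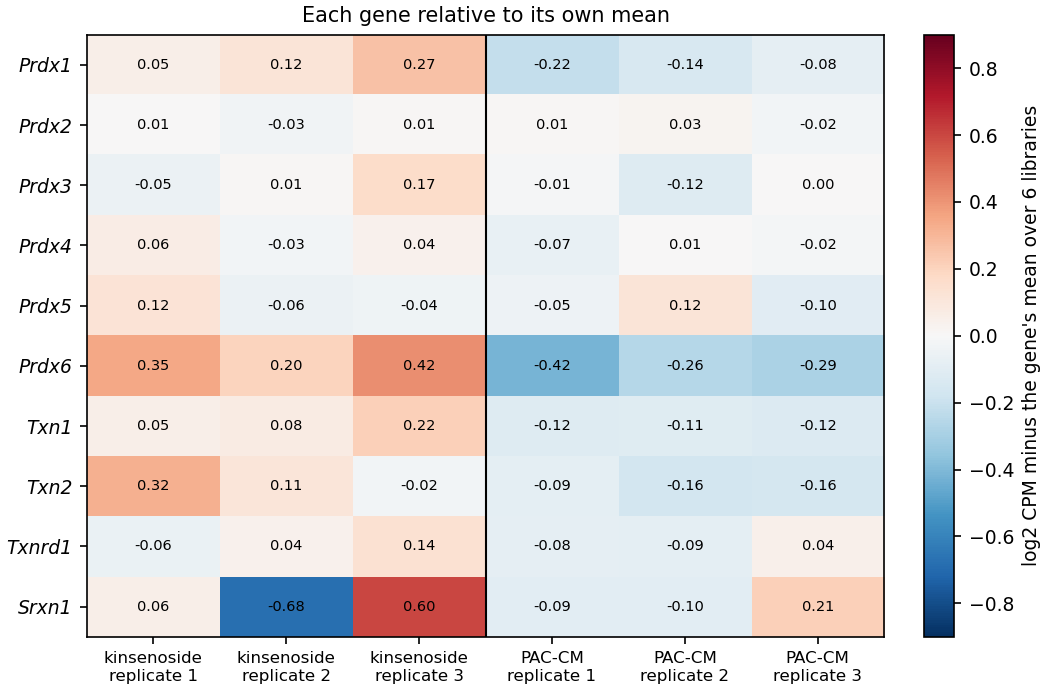
Log2 CPM of each gene (rows) in each library (columns, kinsenoside left of the line) minus the mean of that gene over the 6 libraries, after TMM scaling. Prdx6 is above its mean in all 3 kinsenoside libraries (0.35, 0.20 and 0.42) and below it in all PAC-CM libraries, and Srxn1 runs from -0.68 to 0.60 within the kinsenoside group.

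Kinsenoside replicate 3 had the highest CPM of the 6 libraries for 6 of the 10 members, Prdx1, Prdx3, Prdx6, Txn1, Txnrd1 and Srxn1. Of the 9 identifiers of macrophage markers, 3 were highest in the same library, Lyz2, Cd14 and Mertk, and 3 were lowest there, Adgre1, Csf1r and 1 of the Itgam rows. Lyz2, lysozyme, had 15323 CPM in that library and between 11052 and 12771 CPM in the other 5, and Adgre1, the F4/80 antigen, had 1330 CPM there. The part of these markers in the members' values was not tested. Without that library the log2 fold change of Prdx6 was 0.60 (edgeR adjusted p = 0.0412).

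Levels of different members were compared per length, as CPM divided by the kilobases covered by annotated exons. Prdx1 stood far above the rest at 2589 ± 186 CPM per kb with kinsenoside and 2178 ± 100.3 CPM per kb in PAC-CM alone (SD, n = 3 each), ranking 19th among 13891 tested genes with an annotated length. It held 64.0% of the summed length-scaled level of the 10 members with kinsenoside and 61.7% in PAC-CM alone. Prdx5 and Txn1 followed, at 460.5 ± 32.6 and 464 ± 26.5 CPM per kb with kinsenoside, and at 469 ± 36.4 and 407 ± 1.70 CPM per kb in PAC-CM alone. With kinsenoside these neighbours did not differ beyond their spread. Srxn1 came next at 178 ± 73.8 CPM per kb with kinsenoside and 175 ± 22.3 in PAC-CM alone, and Prdx6 stood at 146 ± 10.4 CPM per kb with kinsenoside and 96.2 ± 5.39 in PAC-CM alone.

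Below these came Txnrd1, Prdx2, Prdx3, Prdx4 and Txn2. Txnrd1 had 88.8 ± 5.79 CPM per kb with kinsenoside and 86.4 ± 4.46 in PAC-CM alone, and Prdx2 had 66.1 ± 0.699 and 68.6 ± 1.11 in the same order of groups. Prdx3, Prdx4 and Txn2 were the least abundant. Prdx3 had 24.4 ± 1.81 CPM per kb with kinsenoside and 23.8 ± 1.10 in PAC-CM alone, and Prdx4 had 20.8 ± 0.596 and 20.7 ± 0.494. Txn2 was last, with 6.67 ± 0.817 CPM per kb with kinsenoside and 5.68 ± 0.187 in PAC-CM alone. With the length of the longest transcript in place of all exons, Prdx6 passed above Srxn1 and Prdx4 above Prdx3, so the order within these pairs is uncertain. Counts of the 10 genes together made up 1.10%, 1.11% and 1.24% of all counts with kinsenoside, against 0.954%, 0.997% and 1.03% with PAC-CM alone.

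**Figure D4:**
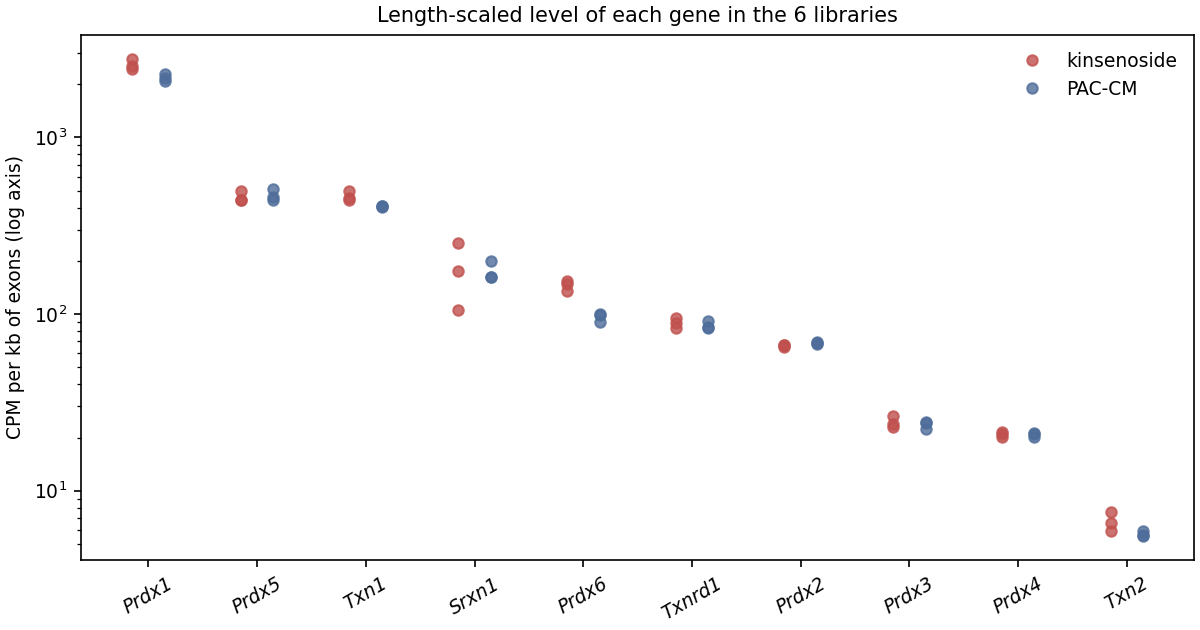
CPM per kb of exons (log axis) of each gene, ordered by mean level, with 1 point per library (n = 3 per group, kinsenoside left of PAC-CM). Prdx1 is highest at 2081 to 2791 CPM per kb and Txn2 lowest at 5.55 to 7.54 CPM per kb.

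Transcribed near-copies could draw reads from some members. Of annotated transcripts with at least 90% identity over at least 250 bases, the processed pseudogenes Gm21399 (98.3% identity over 597 bases) and Gm7204 (97.5%) matched Prdx1 and held up to 2514 and 1053 counts in a library, and Gm15974 (90.9%) held up to 3. All near-copies of Prdx1 together held at most 1.18% of its count. For Prdx2 the pseudogene Tdpx-ps1 held at most 15 counts, and for Txn1 the pseudogene Txn-ps1 held at most 5. The single near-copy of Prdx6 in the table had no counts. The related gene Prdx6b, which may be that same near-copy, had none either.

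The genes whose pattern over the 6 libraries was most like that of Prdx6 were found by the root mean square difference of log2 CPM, each gene centred on its own mean. Counting named genes that averaged 5 CPM or more, they were Mrc1 (0.0431), Rpl38-ps2 (0.0508), Olfr56 (0.0645), Ndufs8 (0.0781) and Ccdc12 (0.0968). Mrc1 encodes the mannose receptor, and Ndufs8 a subunit of respiratory complex I. Rpl38-ps2 is a pseudogene of a ribosomal protein, and the Olfr56 model spans other genes, Ifi47 among them, so their reads are uncertain. Of the family itself Prdx1 was the nearest to Prdx6 (0.189), at place 152 among 9154 genes, and Srxn1 the farthest (0.461).

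Matches to the core of the antioxidant response element, the DNA element that NRF2 binds, were looked for upstream of the members because the family includes known NRF2 targets. The letters TGACNNNGC and TGAGNNNGC were searched on both strands in the 250 bases before each annotated start in the RefSeq promoter table (GRCm38.p6), which held 11 windows for 9 of the 10 members and none for Prdx6. At least 1 match was present in 4 of these windows, those of Prdx1, Srxn1, Txn2 and 1 of 3 for Txnrd1, and in 23.0% of all 32851 windows. The stretches of 49 bases around matches of the known NRF2 targets are given in the direction of transcription, with the match in capitals.
Prdx1, chr4:116685446-116685494, plus strand: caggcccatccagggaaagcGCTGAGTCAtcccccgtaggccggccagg
Srxn1, chr2:152105346-152105394, plus strand: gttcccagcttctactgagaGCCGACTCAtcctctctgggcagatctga
Srxn1, chr2:152105459-152105507, plus strand: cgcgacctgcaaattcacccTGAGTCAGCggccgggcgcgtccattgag
Txnrd1, chr10:82859094-82859142, plus strand: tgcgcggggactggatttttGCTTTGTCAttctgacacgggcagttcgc
In Prdx1 and Txnrd1 the match is to TGACNNNGC on the minus strand, and Srxn1 has TGAGNNNGC once on each strand. The match nearest to a start is that of Srxn1 beginning 45 bases before it. A match is a match of letters and no sign of binding. Of the members with a match, the groups were apart in CPM for Prdx1 and, barely, Txn2, and overlapped for Srxn1 and Txnrd1. A link between matches and levels was not tested.

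Partners of the system were examined through 8 gene lists. Txnip, the protein that binds and inhibits thioredoxin, had 214, 357 and 259 CPM with kinsenoside, against 358, 387 and 443 CPM in PAC-CM alone. The kinsenoside libraries were all lower in CPM, but after TMM scaling the groups overlapped, at 361 CPM in kinsenoside replicate 2 and 351 CPM in PAC-CM replicate 1. The log2 fold change of -0.47 (SE 0.192) missed the threshold (edgeR adjusted p = 0.331). Per count of Txn1 there were 0.459, 0.749 and 0.499 counts of Txnip with kinsenoside, against 0.834, 0.902 and 1.04 in PAC-CM alone. This ratio was also chosen after the values were seen (exact permutation p = 0.1, the smallest possible, and 0.125 adjusted over 5 ratios). The glutaredoxin gene Glrx, whose product reduces protein disulfides with glutathione, had 1495, 1224 and 717 CPM with kinsenoside and 569.7, 1463 and 722 CPM in PAC-CM alone, with full overlap. Of 25 tested thioredoxin-family partners none was called (median log2 fold change 0.02). The groups did not overlap in CPM for 4 higher and 2 lower, beside 6.86% higher and 15.7% lower of all tested genes.

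Map3k5, the stress kinase ASK1 that thioredoxin binds and holds inactive, was the only called gene of the 8 lists, 1 of 94 tested genes (1.06%), beside 0.511% of all tested genes called in either direction and 0.302% called lower. It fell to 10.1, 9.03 and 7.47 CPM with kinsenoside, against 17.2, 15.8 and 14.96 CPM in PAC-CM alone (log2 fold change -0.81, SE 0.125, edgeR adjusted p = 0.0412). The call was lost without kinsenoside replicate 2 or 3 (edgeR adjusted p = 0.144 and 0.0735) and without PAC-CM replicate 1, 2 or 3 (0.161, 0.154 and 0.105), and with limma-voom (0.0555) or non-robust estimates (0.0587), while the log2 fold change stayed between -0.91 and -0.70 over all alternatives. Its list, 8 tested thioredoxin clients, had 5 estimates below 0 and 3 genes, Map3k5 among them, whose kinsenoside libraries all lay below PAC-CM in CPM. Over all tested genes 48.9% of estimates were above 0, and 15.7% of genes lay wholly below in CPM (11.4% after TMM scaling). For all 8 lists the genes lying apart were counted in CPM alone, not after TMM scaling, which can bring such groups to overlap. Of 7 other peroxide and superoxide enzymes none was called, and all 7 estimates were above 0 (median 0.07), against 48.9% of all tested genes, with the groups overlapping for all 7. Catalase, Cat, averaged 467 ± 32.0 CPM with kinsenoside and 415 ± 18.2 CPM in PAC-CM alone, and mitochondrial superoxide dismutase, Sod2, 1286 ± 211 and 1265 ± 34.3 CPM (SD, n = 3 each); both groups overlapped for both genes.

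Of 20 other NRF2 targets none was called by edgeR, with 19 estimates above 0 and a median of 0.21. Their log2 fold changes ran from -0.28 to 0.81, and the smallest edgeR adjusted p was 0.0879. For 9 of them the kinsenoside libraries all lay above PAC-CM in CPM. Over all tested genes 48.9% of estimates were above 0, the median was -0.01 and 6.86% lay wholly above in CPM (10.4% after TMM scaling). The highest mean CPM over the 6 libraries together, not divided by length, was that of the ferritin chains. Hmox1, heme oxygenase, named after its values were seen, averaged 8827 ± 393 CPM with kinsenoside and 8617 ± 99.3 CPM in PAC-CM alone. Its log2 fold change was 0.08, below the median of the list. In PAC-CM alone the CPM of Hmox1 was above that of Ftl1, but CPM that is not divided by length does not rank different genes by level. Fth1 averaged 18926 ± 1725 CPM with kinsenoside and 17673 ± 1111 CPM in PAC-CM alone, and Ftl1 averaged 9495 ± 709 and 8123 ± 185 CPM (edgeR adjusted p = 0.477 and 0.135). Of the regulators, Nfe2l2, which encodes NRF2, averaged 153 ± 7.39 CPM with kinsenoside and 155 ± 9.73 in PAC-CM alone, and Mafg, a binding partner of NRF2, 131 ± 6.99 and 131 ± 0.751. None of 7 regulators was called (median 0.02), and 1 lay wholly lower in CPM, beside 15.7% of all tested genes.

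No gene was called among 11 of NADPH supply (median -0.10), 10 of oxidative folding in the endoplasmic reticulum (0.06) and 7 of selenoprotein synthesis (0.05). In CPM the groups did not overlap for 3 lower genes of NADPH supply and for 2 higher and 1 lower of oxidative folding. In selenoprotein synthesis they did not overlap for 1 higher and 2 lower genes. Over all tested genes the shares were 6.86% higher and 15.7% lower in CPM, and 10.4% and 11.4% after TMM scaling. The genes of these lists were not counted on the TMM scale. Of the pentose phosphate enzymes that make NADPH, Pgd averaged 773 ± 78.6 CPM with kinsenoside and 680.0 ± 44.1 in PAC-CM alone, and G6pdx 381 ± 49.6 and 422 ± 18.6 CPM. The disulfide isomerase P4hb averaged 589 ± 121 CPM with kinsenoside and 648 ± 12.7 in PAC-CM alone, and Pdia3 517 ± 10.2 and 503 ± 8.73 CPM. Sephs2, which makes the selenium donor, averaged 69.8 ± 5.38 CPM with kinsenoside and 77.3 ± 0.516 in PAC-CM alone, and the seryl-tRNA synthetase Sars 59.7 ± 3.58 and 65.5 ± 0.815 CPM.

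**Figure D5:**
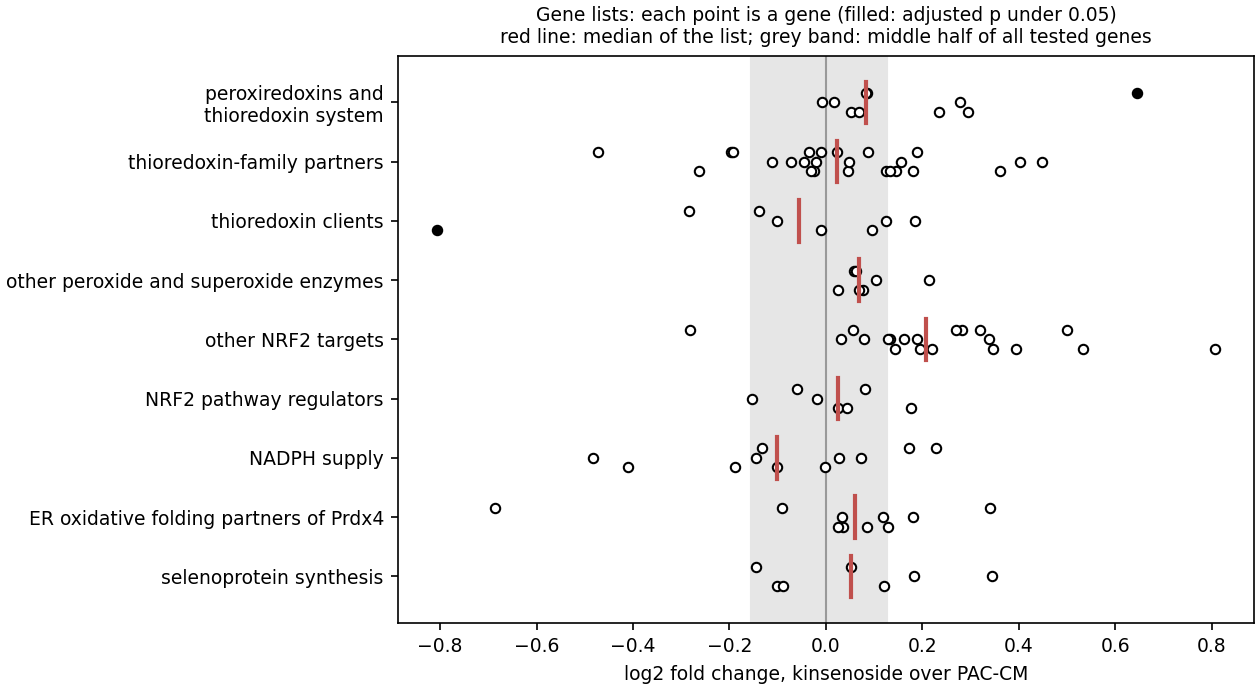
Log2 fold change, kinsenoside over PAC-CM, of every tested gene in the family and in the 8 lists, with the median of each as a red line and the interquartile range of all tested genes as a grey band (-0.16 to 0.13). Filled points are the calls, Prdx6 at 0.65 and Map3k5 at -0.81.

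Library totals were between 41125059 and 43434292 counts with kinsenoside and between 43054066 and 47461702 in PAC-CM alone, so 3 counts correspond to between 0.0632 and 0.0729 CPM. The macrophage markers summed to between 22393 and 25275 CPM with kinsenoside and between 20503 and 22617 CPM in PAC-CM alone, with all 9 identifiers of the 8 symbols detected. The pancreatic acinar markers, all 12 detected, summed to between 6.03 and 8.79 CPM with kinsenoside and between 7.57 and 8.36 CPM in PAC-CM alone. Neutrophil markers reached at most 42.9 CPM with kinsenoside and 40.0 CPM in PAC-CM alone, with Elane at 0. Nearly all of this was S100a8, at 28.5 to 41.8 CPM over the 6 libraries, and each other neutrophil marker had at most 1.75 CPM. Dendritic cell markers summed to at most 9.12 and 9.35 CPM, fibroblast markers to at most 1.04 and 0.822 CPM, and T and NK cell markers to 0 and at most 0.272 CPM with Cd3d and Ncr1 at 0, in the same order of groups. Most of the dendritic cell sum was Xcr1, at 5.42 to 8.47 CPM over the 6 libraries. In bulk RNA, fewer cells of a type and less RNA per cell cannot be told apart.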

How the data were processed

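The table holds raw counts per Ensembl gene for 6 libraries, as the authors deposited it; the build GRCm38 and the tools DESeq2 1.16.1, StringTie 1.3.1c, STAR, FastQC 0.11.2 and bcl2fastq 2.20 are listed, with no role or order, in the submitters' processing notes. Which tool made the counts was not given in the sources used here. Total counts are given in the report. Coordinates, exon lengths and transcripts come from GENCODE M21 (GRCm38).

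Kinsenoside was compared with PAC-CM (3 libraries each) by edgeR 4.0.16 (R 4.3.3): filterByExpr, TMM scaling, robust quasi-likelihood estimates with group as the single factor (4 residual degrees of freedom), a two-sided test, and Benjamini-Hochberg adjustment over 13901 genes with a threshold of 0.05. Each SE was taken as the absolute log2 fold change over the root of its F statistic. CPM is the count over the library total. Log2 CPM used a prior count of 2. Near-copies were found by blastn. The script was tested on simulated data.

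The members and lists were chosen with earlier results of these data known. All members were named, then per list up to 4 called genes or, with none, the 2 of highest mean CPM. The 5 genes most like the member of smallest adjusted p (clone and model names passed over) were also named, and near-copies with at least 3 counts in a library. Alternatives were RLE and total count scaling, other filters, DESeq2 1.42.0, limma-voom (limma 3.58.1), the replicate block, non-robust estimates, another length, TMM-scaled levels and leaving out each library. Intervals and floors cover counting error or library spread only.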

Additional observations from a re-analysis of the deposited data

How the results depend on the processing

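The number of genes called, 71 (29 higher and 42 lower), was 441 with DESeq2 1.42.0, 39 with limma-voom, 36 with non-robust estimates and 42 with the replicate number as a block. It was between 13 and 98 with 1 library left out, with 13, 26 and 14 without PAC-CM replicates 1, 2 and 3, 20 and 37 without kinsenoside replicates 2 and 3, and 98 without kinsenoside replicate 1. Total count scaling gave 25 higher and 63 lower. Deviations from the group means had correlations of 0.00874, -0.101 and 0.135 between same-numbered libraries. Between libraries of unlike number they ran from -0.173 to 0.164. The sources used here do not say whether the numbers pair the libraries, and 3 such correlations cannot settle it. With the block Prdx6 remained called (edgeR adjusted p = 0.0471). Of the members 2 were called with DESeq2 (Prdx1 and Prdx6), beside 3.8% of tested genes called with DESeq2 and 0.511% in the main fit. Between 0 and 1 members were called with 1 library left out, beside between 0.0918% and 0.69% of tested genes. The count was 0 without any 1 PAC-CM library. Of 140 alternative values of the members' log2 fold changes, 126 kept direction and side of the threshold. Values near 0 changed sign: Prdx2 was 0.000033 with RLE scaling, and between -0.017 and 0.0060 with 1 library left out, above 0 without kinsenoside replicate 2 or PAC-CM replicate 2. Prdx5 was -0.027 with total count scaling, and between -0.043 and 0.086 with 1 library left out, below 0 without kinsenoside replicate 1 or PAC-CM replicate 1 or 3. Srxn1 was -0.016 with limma-voom, -0.014 with the replicate block, and between -0.28 and 0.34 with 1 library left out, below 0 without kinsenoside replicate 3. The cause was not tested. By the longest transcript, the level of Prdx1 was 3435 CPM per kb with kinsenoside and 2889 in PAC-CM alone, and its share 63.1% in PAC-CM alone. With 3 libraries per group, differences inside the intervals given with the members remained possible. Not given there were the 95% intervals of Prdx1 (0.09 to 0.50), Prdx6 (0.43 to 0.86), Txn1 (0.06 to 0.41) and Txn2 (0.01 to 0.54). These lie above 0 but are not adjusted over genes, and of these genes only Prdx6 was called in the main fit.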
